A study of Mus musculus with 6 samples.

Results

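The vomeronasal receptor windows were all the promoter windows whose gene symbol is Vmn1r or Vmn2r followed by a number, 349 of the 27095 windows in the table. They comprised 228 Vmn1r and 121 Vmn2r windows. The rule used symbols only, but it was set with earlier results of these data known. Chromatin accessibility had been profiled by ATAC-seq, an assay that uses the Tn5 transposase to cut and tag accessible DNA, in MHCII-high medullary thymic epithelial cells (mTECs), the thymic cells that display self-antigens to developing T cells. There were 3 wildtype libraries and 3 Kat7 knockout libraries, each from its own biological replicate and all from mice of the C57BL/6 background. KAT7 is a histone acetyltransferase. The Kat7 allele, whatever drives its deletion, and the age and sex of the mice are not named in the labels. The comparison asks how the absence of KAT7 bears on accessibility at gene starts.

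Vomeronasal receptors detect pheromones and other social cues in the sensory neurons of the vomeronasal organ. V1R receptors, encoded by the Vmn1r genes in a single coding exon, couple to the G protein subunit encoded by Gnai2. V2R receptors, encoded by the multi-exon Vmn2r genes, have a long extracellular domain and couple to the product of Gnao1, and both routes end at the channel TRPC2. Each neuron expresses very few receptors from large clusters of closely related genes, and outside sensory tissue the genes are normally silent. Receptor genes of this kind belong to the tissue-restricted genes that mTECs can transcribe in few cells at a time. In these bulk libraries, fewer cells with an open window and less accessibility per cell cannot be told apart.

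The promoters below carry the main contrasts among these genes. They run from 250 bases before the annotated start, on the gene's strand, and were taken from the RefSeq table of GRCm38.p6, which held a promoter for 204 Vmn1r and 114 Vmn2r windows. Capitals mark CG dinucleotides and, at the end of a sequence, a start ATG where the annotated start falls on one. Vmn2r29 (chr7:7278290-7278539, minus strand) had the most accessible window of both families, and Vmn2r83 (chr10:79468708-79468960, plus strand) the next. Vmn1r20 (chr6:57431441-57431693, plus strand) had the most accessible Vmn1r window. Vmn1r194 (chr13:22243965-22244217, plus strand) had the single window called lower in the knockout. Vmn2r121 (chrX:124135911-124136160, minus strand) had the largest rise among the members called after the filter on low counts. The Vmn1r166 promoter (chr7:23251680-23251932, minus strand) was shared base for base by 6 genes, Vmn1r111, Vmn1r118, Vmn1r131, Vmn1r138, Vmn1r166 and Vmn1r257.
Vmn2r29: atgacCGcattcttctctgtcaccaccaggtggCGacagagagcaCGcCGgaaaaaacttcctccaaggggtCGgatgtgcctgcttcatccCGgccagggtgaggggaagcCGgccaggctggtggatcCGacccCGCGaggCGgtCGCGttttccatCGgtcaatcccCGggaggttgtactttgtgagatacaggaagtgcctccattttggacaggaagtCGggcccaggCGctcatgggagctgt
Vmn2r83: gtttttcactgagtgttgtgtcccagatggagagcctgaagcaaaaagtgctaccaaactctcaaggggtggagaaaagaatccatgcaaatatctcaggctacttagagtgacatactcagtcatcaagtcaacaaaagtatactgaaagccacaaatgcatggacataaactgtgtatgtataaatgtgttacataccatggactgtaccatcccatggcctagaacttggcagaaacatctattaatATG
Vmn1r20: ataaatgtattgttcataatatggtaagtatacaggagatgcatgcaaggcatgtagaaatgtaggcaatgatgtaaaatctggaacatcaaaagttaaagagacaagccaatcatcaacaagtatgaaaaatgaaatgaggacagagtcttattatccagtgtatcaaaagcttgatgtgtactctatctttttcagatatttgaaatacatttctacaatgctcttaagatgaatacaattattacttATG
Vmn1r194: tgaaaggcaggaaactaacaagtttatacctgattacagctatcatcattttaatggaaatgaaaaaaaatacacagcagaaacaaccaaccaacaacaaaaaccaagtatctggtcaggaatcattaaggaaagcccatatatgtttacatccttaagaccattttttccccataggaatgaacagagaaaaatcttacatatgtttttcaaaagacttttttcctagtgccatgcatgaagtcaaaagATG
Vmn2r121: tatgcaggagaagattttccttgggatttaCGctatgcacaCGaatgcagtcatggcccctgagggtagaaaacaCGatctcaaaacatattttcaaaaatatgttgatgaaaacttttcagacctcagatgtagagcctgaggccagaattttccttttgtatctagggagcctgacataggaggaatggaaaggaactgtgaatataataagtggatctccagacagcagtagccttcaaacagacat
Vmn1r166: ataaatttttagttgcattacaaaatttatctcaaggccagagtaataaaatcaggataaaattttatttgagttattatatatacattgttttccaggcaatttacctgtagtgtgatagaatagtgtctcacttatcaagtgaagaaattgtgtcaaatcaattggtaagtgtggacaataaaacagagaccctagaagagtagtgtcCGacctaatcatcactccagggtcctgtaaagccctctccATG

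Vmn2r29 stood apart in base composition as well as in level. Counted from 250 bases before to 50 bases after the start, its promoter held 23 CG dinucleotides at 62.3% GC, whereas Vmn2r83, Vmn1r20 and Vmn1r194 held 0. The median was 1 CG per promoter in both families, at 36% GC for Vmn1r and 38% for Vmn2r, against 7 CG and 52.7% GC over all 32851 promoters of the table. Only 1 Vmn2r promoter, that of Vmn2r29, and 0 Vmn1r promoters held 10 or more CG, which 43.5% of all promoters did. The annotated start was the A of an ATG in 88.2% of the Vmn1r and 86% of the Vmn2r promoters, so that for most members these bases precede the coding sequence and need not hold the site where transcription begins.

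Short motifs were counted on both strands of the same span, and a match is a description of the letters only. The TATA-box word TATAAA occurred in 42.7% of Vmn1r, 21.9% of Vmn2r and 13.6% of all promoters. The homeodomain core TAATTA was found in 7.35% of Vmn1r promoters, 17.5% of Vmn2r promoters and 5.29% of all promoters. CANNTG, the E-box, was present in 81.9% of Vmn1r, 97.4% of Vmn2r and 72.3% of all promoters. The palindromic O/E site of the EBF factors matched 0 promoters of either family and 0.904% of all. The promoters of AT-rich genes hold more AT-rich words by composition, and GC content was not matched here.

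The windows were placed relative to annotated gene starts. In 218 of the 228 Vmn1r and 110 of the 121 Vmn2r windows the RefSeq start lay exactly 3000 bases into the window. Vmn1r genes are short, with a median annotated length of 924 bases, and 204 of their windows ended where the gene ends, and 216 were shorter than the full 5001 bases. Every Vmn2r window had the full length. Levels are therefore compared between windows only per kb. RefSeq lists Vmn2r125 as a pseudogene and every other member as protein coding.

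The libraries held 15482439 to 19832326 counts, and the knockout label was borne out at the targeted gene. The Kat7 window (chromosome 11, 95308246 to 95313246, build mm10) averaged 267 ± 26.5 CPM (CPM stands for counts scaled to library size; SD, n = 3) in wildtype and 21.2 ± 14.9 CPM in knockout, a log2 fold change of -3.66 (SE 0.574, edgeR adjusted p = 0.0143). Knockout libraries 1 to 3 held 11.9, 13.2 and 38.3 CPM there, so library 3 kept the most signal. Loss of DNA from this window and loss of accessibility cannot be told apart, since the allele is unknown. The adjusted p was 0.0643 without wildtype library 1 and 0.0565 without wildtype library 3, with log2 fold changes of -3.60 and -3.67. Windows of 11 medullary thymic epithelial markers had a median of 122 CPM and those of 9 thymocyte markers a median of 3.28 CPM. The 6 vomeronasal and olfactory neuron markers summed to 223 to 232 CPM in wildtype and 188 to 209 CPM in knockout, and none was at 0, the lowest being Trpc2 at 1.28 CPM. B cell markers summed to 57.2 to 58.3 CPM in wildtype and 36.5 to 38.1 CPM in knockout, myeloid markers to 53.9 to 57.4 and 40.4 to 43.1 CPM, mesenchymal markers to 98.4 to 100.5 and 69.7 to 71.4 CPM, thymocyte markers to 35.5 to 39.2 and 40.1 to 46.4 CPM, endothelial markers to 39.8 to 43.3 and 31.8 to 34.7 CPM, and the medullary markers themselves to 1300 to 1413 and 1468 to 1760 CPM. The part of cell composition in the results below was not tested.

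Nearly all vomeronasal receptor windows were closed. The median level was 0.228 CPM per kb for Vmn1r (range 0.042 to 1.11) and 0.229 for Vmn2r (range 0.115 to 6.18), against 1.5 for all windows, of which 15.8% and 15.9% lay below the family medians. Only 5 Vmn1r and 3 Vmn2r windows exceeded 0.5 CPM per kb, and 1 and 3 exceeded 1. A typical Vmn1r window held 15.2 counts per library and a typical Vmn2r window 19.3, at which depth counting error alone is wide: a count of 15 has an exact Poisson 95% interval of 8.4 to 24.7, and a count of 19 one of 11.4 to 29.7. Both intervals reflect counting error alone, because the reads carried no stated molecular identifiers and need not be independent molecules. Vmn1r63, the lowest window, had 0, 0 and 3 counts in the wildtype and 1, 10 and 7 in the knockout libraries, Vmn1r130 had 0 counts in wildtype library 2, and all other members had counts in every library.

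Vmn2r29 was the exception in level. It held 29.4, 32.3 and 31.1 CPM in wildtype libraries 1 to 3 and 34.4, 30.1 and 28 CPM in knockout libraries 1 to 3. The groups overlapped fully, and the log2 fold change was -0.00 (SE 0.113, edgeR adjusted p = 0.983). With loess offsets, which remove a trend with level, it was 0.22 (adjusted p = 0.045). The window (chromosome 7, 7276289 to 7281289, minus strand) lies 16.2 kb from that of Clcn4, a chloride/proton exchanger gene, which averaged 169 CPM in wildtype and 167 CPM in knockout. Vmn2r30, the next receptor 54.2 kb away, was closed, at 0.918 CPM in wildtype and 1.93 CPM in knockout, with a change of 1.07 in log2 (adjusted p = 0.0623).

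Vmn2r83 was second, with 9.74, 13.3 and 13.6 CPM in the wildtype and 10.43, 10.75 and 10.15 CPM in the knockout libraries. All 3 knockout values lay inside the wildtype range, and the log2 fold change was -0.22 (SE 0.142, adjusted p = 0.271). Vmn2r81 and Vmn2r82, which precede it on chromosome 10, were at 1.6 and 1.04 CPM in wildtype. Among the Vmn1r windows the highest was Vmn1r20, with 3.13, 4.22 and 3.9 CPM in wildtype and 3.95, 5.14 and 5.81 CPM in knockout. Its lowest knockout library lay within the wildtype range (log2 fold change 0.41, SE 0.226, adjusted p = 0.181). Of the next Vmn1r windows per kb, Vmn1r233, Vmn1r193 and Vmn1r11 were at 0.737, 0.692 and 0.634 CPM per kb and did not pass the test, Vmn1r194 was at 0.531 and fell, as described below, and Vmn1r235 was at 0.477 and did not pass.

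Summed over their members, both families were higher in knockout libraries 2 and 3 than in any wildtype library, and knockout library 1 was not. The 228 Vmn1r windows together held 140.9, 185 and 214 CPM in wildtype libraries 1 to 3 and 155, 297 and 349.5 CPM in knockout libraries 1 to 3 (180 ± 36.7 against 267 ± 100.7 CPM, SD, n = 3 each, 1.48-fold). The 121 Vmn2r windows held 115, 158 and 171 CPM in wildtype and 144, 244 and 275 CPM in knockout (147.9 ± 29.1 against 221 ± 68.7 CPM, 1.5-fold). In both families the groups overlapped, because knockout library 1 lay below wildtype libraries 2 and 3.

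Closed windows of other genes varied between the libraries in much the same order. The lowest 25% of tested windows by level, with the Vmn1r, Vmn2r, olfactory and bitter taste receptor genes left out, numbered 4935 and summed to 4946, 6047 and 6582 CPM in wildtype and 4656, 7670 and 8286 CPM in knockout. Wildtype library 1 and knockout library 1 were the lowest of their groups there too. Knockout library 1 was below wildtype library 1 in this sum, however, and above it in both families. Taken as a percentage of that sum, the Vmn1r windows made up 2.85, 3.07 and 3.25% in wildtype and 3.33, 3.87 and 4.22% in knockout, and the Vmn2r windows 2.33, 2.61 and 2.59% in wildtype and 3.09, 3.18 and 3.32% in knockout. On this scale every knockout library lay above every wildtype library in both families, at 1.25-fold for Vmn1r and 1.27-fold for Vmn2r. Against the 10232 windows of other genes at up to 1 CPM per kb, a choice made after the data were seen, the folds were 1.5 and 1.53 and the groups were again separate. Those windows summed to 16810, 18820 and 20350 CPM in wildtype and 13650, 19530 and 20950 CPM in knockout. Knockout library 1 had the lowest sum of all libraries in both sets of closed windows, which by itself raises its shares. With 3 against 3 libraries an exact permutation test cannot go below p = 0.1, and none was run on these sums.

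**Figure D1:**
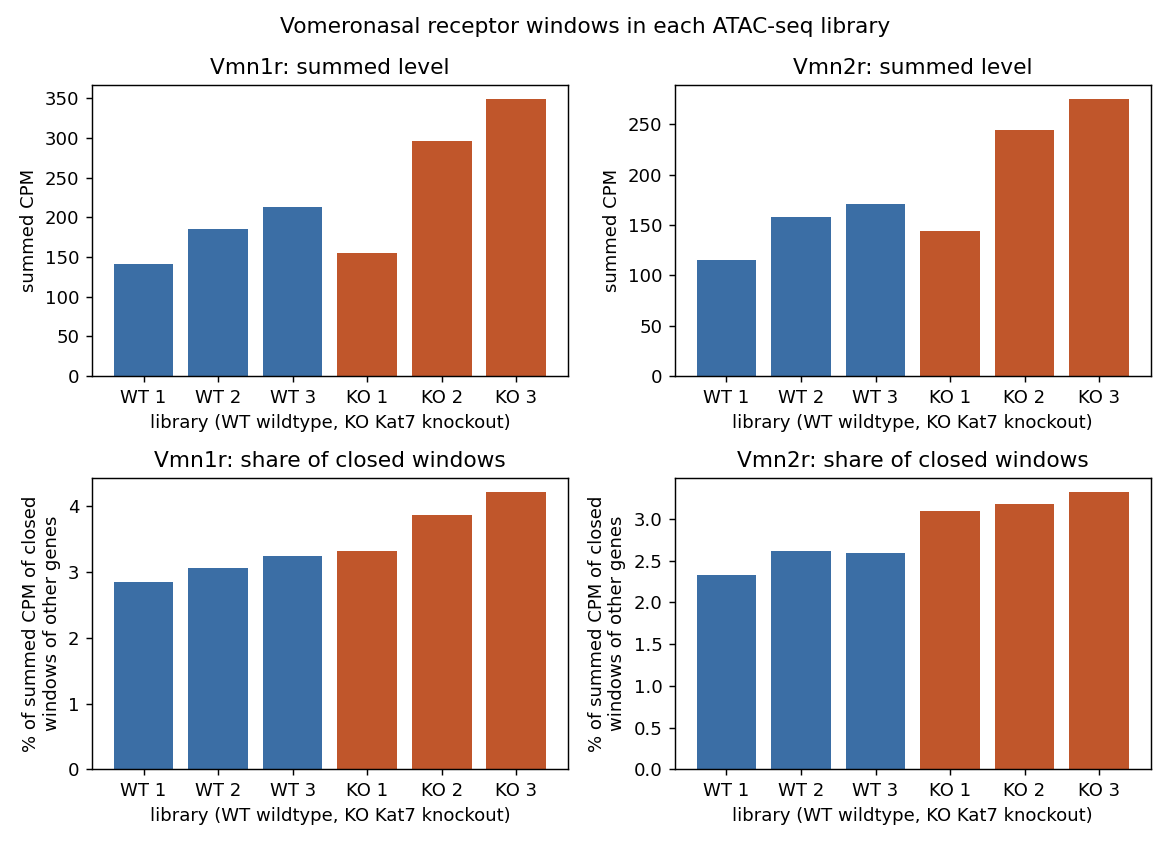
Summed level of the Vmn1r (left) and Vmn2r (right) windows in each library, in CPM (top) and as a percentage of the summed CPM of 4935 closed windows of other genes (bottom); each bar is 1 library. Knockout library 1 lies among the wildtype libraries in CPM, whereas all 3 knockout libraries lie above all wildtype libraries in the lower plots (3.33 to 4.22% against 2.85 to 3.25% for Vmn1r).

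The same shift was visible in the middle of each family. The median log2 fold change was 0.64 over all 228 Vmn1r and 0.77 over all 121 Vmn2r windows when no window was left out for low counts, against 0.01 over all 26639 windows with a count, and 92.5% and 96.7% of the members had a fold change above 0, against 51.6% of all. Relative to the wildtype mean, the median log2 ratio of the Vmn1r windows was -0.14 in knockout library 1, 0.77 in library 2 and 0.98 in library 3. For the Vmn2r windows it was -0.03, 0.92 and 1.16. Members share libraries, chromosomes and sequence and are not independent, so these are descriptions. Other closed windows had a smaller median in that fit, 0.27 over the 4930 outside the receptor families that fell in the lowest 25% by mean log2 CPM (the 4935 above were taken by mean CPM).

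Few single members passed the test across all windows. Without a filter on low counts, 13 Vmn1r windows were higher and 1 lower in the knockout (5.7% of 228 higher), and 13 Vmn2r windows were higher and 0 lower (10.7% of 121), at an edgeR adjusted p under 0.05. The background over all windows in that fit was 7.05% higher and 20.6% lower. After the filter, which 190 Vmn1r and 117 Vmn2r windows passed, 7 Vmn1r windows were higher and 1 was lower, and 11 Vmn2r windows were higher and 0 lower, against a background of 6.36% higher and 20.2% lower over 24817 windows and of 2.26% and 1.35% over the lowest 25% by level. At an unadjusted p under 0.05 in edgeR, 25 Vmn1r windows were higher and 1 lower, and 36 Vmn2r windows higher and 0 lower (backgrounds of 11.8% higher and 23.4% lower). DESeq2 called 3 higher and 1 lower, and 6 higher and 0 lower (backgrounds of 7.73% and 16.8%). Of the tested members, 133 Vmn1r and 78 Vmn2r windows did not exceed the filter's limit of 0.615 CPM in every wildtype library. Many passed through the knockout libraries: 51 and 39 of them exceeded it in every knockout library. Among the members called higher, only Vmn1r27, Vmn2r117 and Vmn2r125 exceeded it in every wildtype library. The filter thus favoured the other higher calls, whose knockout levels helped them to be tested. All knockout libraries exceeded all wildtype libraries at 23 of 228 Vmn1r and 18 of 121 Vmn2r windows (14.9%), where the background was 13%.

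The number of higher calls turned on knockout library 1. It had 19740835 counts and a scaling (TMM) factor of 0.884, against factors of 0.984 to 1.057 in the others. Wildtype library 1 was similarly deep, at 19832326 counts, and the rest held 15482439 to 16388648. The part of depth and scaling was not tested. Without knockout library 1, 83 of 222 tested Vmn1r and 76 of 121 Vmn2r windows were higher, against a background of 12.6%. Without knockout library 2 the counts were 0 and 3 (background 4.34%) and without knockout library 3 they were 1 and 2 (6.14%). Without wildtype library 1 they were 3 and 4 (2.73%), without wildtype library 2 they were 7 and 3 (7.42%), and without wildtype library 3 they were 4 and 6 (4.41%). With libraries scaled by their totals alone 2 Vmn1r windows were higher and 1 lower, and 5 Vmn2r windows were higher (backgrounds of 11.8% higher and 21.4% lower). Of the 19 members called in all, 6 had an adjusted p under all 15 alternatives, and the others under at least 13, since a stricter filter or DESeq2 gave them none. Among the alternatives that gave an adjusted p, 1 member kept its call in each, 4 lost it in 1 or 2 and 14 in 3 or more.

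**Figure D2:**
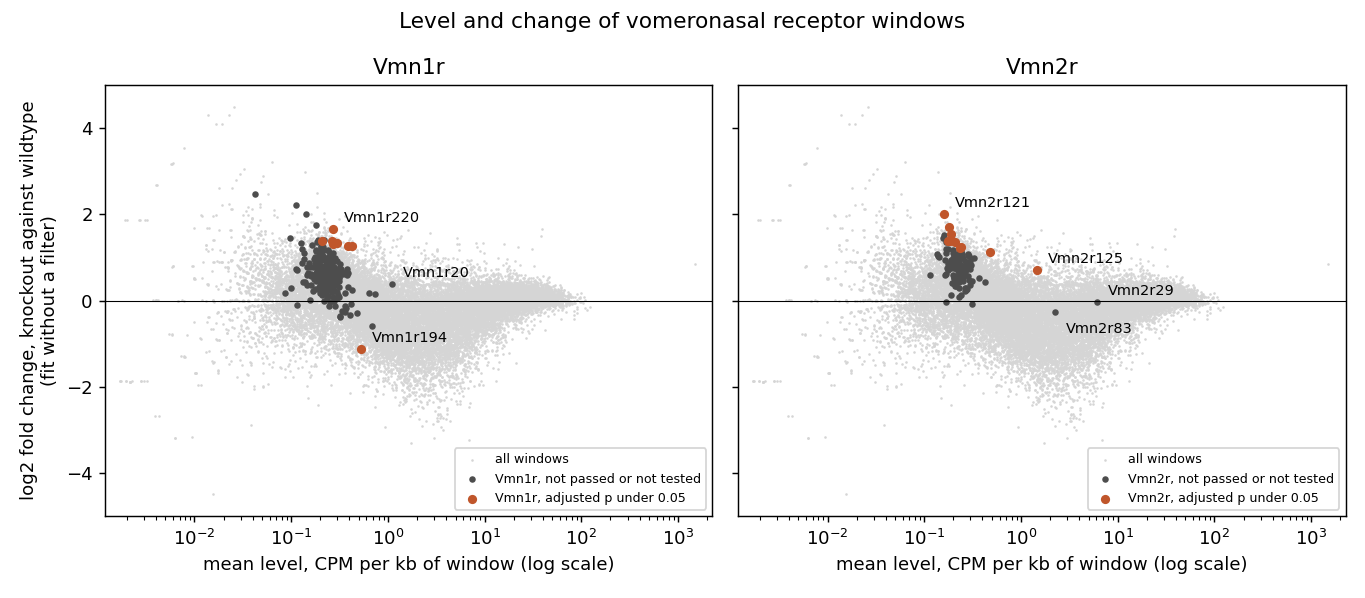
Mean level of each window (CPM per kb, log axis) against its log2 fold change, knockout against wildtype, in the fit without a filter, for Vmn1r (left) and Vmn2r (right) windows over all windows with counts in grey. Most members sit at about 0.2 CPM per kb with positive fold changes (medians 0.64 and 0.77), and Vmn2r29 and Vmn2r83 sit far to the right near 0.

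Vmn2r125 was the one member called under every alternative. Its window (chromosome 4, 156341279 to 156346279) held 3.74, 6.01 and 6.62 CPM in wildtype and 6.19, 10.15 and 10.82 CPM in knockout. Knockout library 1 lay inside the wildtype range and libraries 2 and 3 above it (log2 fold change 0.74, SE 0.173, adjusted p = 0.000141). Vmn2r129, 8.18 kb before it, was closed and did not pass (log2 fold change 0.29, adjusted p = 0.685). Samd11, the next gene on the same side at 82.9 kb, fell from 9.77 to 3.16 CPM, with a change of -1.63 in log2 (adjusted p = 2.69e-16).

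Vmn2r121 had the largest change of the members called after the filter. The wildtype libraries had 4, 6 and 6 counts at its window (chromosome X, 124133910 to 124138910) and the knockout libraries 13, 21 and 31, or 0.314 ± 0.0958 against 1.3 ± 0.577 CPM. All knockout libraries were above all wildtype libraries (log2 fold change 2.04, SE 0.569, adjusted p = 0.00198), and without knockout library 3 its adjusted p was 0.0516. None of the wildtype libraries reached the limit of the filter here. Its promoter, printed above, held 4 CG.

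Vmn2r117, on chromosome 17, held 1.28, 1.6 and 1.6 CPM in wildtype and 2.75, 2.69 and 4.59 CPM in knockout, with no overlap (log2 fold change 1.16, SE 0.335, adjusted p = 0.00287). Its adjusted p was 0.101 without knockout library 3. Vmn2r59, on chromosome 7, went from 0.413 ± 0.224 to 1.37 ± 0.395 CPM, with a change of 1.73 in log2 (SE 0.542, adjusted p = 0.007). Here too all knockout libraries were higher, but the call was lost without wildtype library 1 (adjusted p = 0.099), wildtype library 2 or knockout library 2. The remaining higher Vmn2r windows were Vmn2r26 on chromosome 6 and Vmn2r31, Vmn2r38, Vmn2r40, Vmn2r47, Vmn2r53 and Vmn2r68 on chromosome 7. Their log2 fold changes were 1.24 (Vmn2r40) to 1.57 (Vmn2r47), with adjusted p of 0.0132 to 0.043. Each call was lost under 4 to 8 alternatives. At Vmn2r47, as at Vmn2r121, none of the wildtype libraries reached the limit of the filter. Vmn2r15, Vmn2r46 and Vmn2r107 were called only without the filter, with log2 fold changes of 1.52, 1.37 and 1.45 (adjusted p of 0.0263, 0.0463 and 0.0368).

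Of the Vmn1r windows higher after the filter, Vmn1r220 on chromosome 13 changed most. It had 10, 4 and 12 counts in the wildtype and 21, 36 and 24 in the knockout libraries, with no overlap (0.492 ± 0.227 against 1.61 ± 0.489 CPM, a rise of 1.68 in log2 with SE 0.515, adjusted p = 0.00579). The call was lost without wildtype library 2 (adjusted p = 0.105) and without knockout library 2. Vmn1r27 on chromosome 6 held 0.666, 1.41 and 0.827 CPM in wildtype and 1.66, 2.57 and 2.87 CPM in knockout. Its groups were also separate (log2 fold change 1.30, SE 0.424, adjusted p = 0.0104). That call was lost without wildtype library 1 (adjusted p = 0.105) or 3 or knockout library 2 or 3. Vmn1r121, Vmn1r143, Vmn1r151, Vmn1r166 and Vmn1r257, all in the largest cluster of chromosome 7, had log2 fold changes of 1.28 to 1.41 and adjusted p of 0.0179 to 0.0368, and each call was lost under 5 to 8 alternatives. A further 6 Vmn1r windows of chromosome 7 had too few counts for the filter and were called without it. Vmn1r62 had 3, 4 and 3 counts in wildtype and 8, 23 and 16 in knockout, with no overlap (log2 fold change 2.21, adjusted p = 0.00291). Vmn1r63, whose counts are given above, had a larger fold change of 2.47 (adjusted p = 0.0258). Vmn1r252, Vmn1r157, Vmn1r95 and Vmn1r167 had fold changes of 2.01, 1.75, 1.40 and 1.40 on the log2 scale.

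Vmn1r194 was the single member called lower, and the single one of 349 with every knockout library below every wildtype library (22.8% of all windows). It held 2.26, 3.26 and 2.95 CPM in wildtype and 0.917, 1.49 and 1.53 CPM in knockout (chromosome 13, 22241215 to 22245105). Each knockout library was below each wildtype library (log2 fold change -1.10, SE 0.369, adjusted p = 0.0136), although without wildtype library 2 the adjusted p was 0.128 and the call was also lost without wildtype library 3. Vmn1r193, 18.4 kb before it and the third most accessible Vmn1r window, held 2.56, 3 and 4.25 CPM in wildtype and 1.49, 2.45 and 2.69 CPM in knockout. Those groups overlapped (log2 fold change -0.57, adjusted p = 0.166). Vmn1r192 and Vmn1r195 on either side were at 0.872 and 1.17 CPM in wildtype and 1.1 and 1.24 CPM in knockout, and neither passed.

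**Figure D3:**
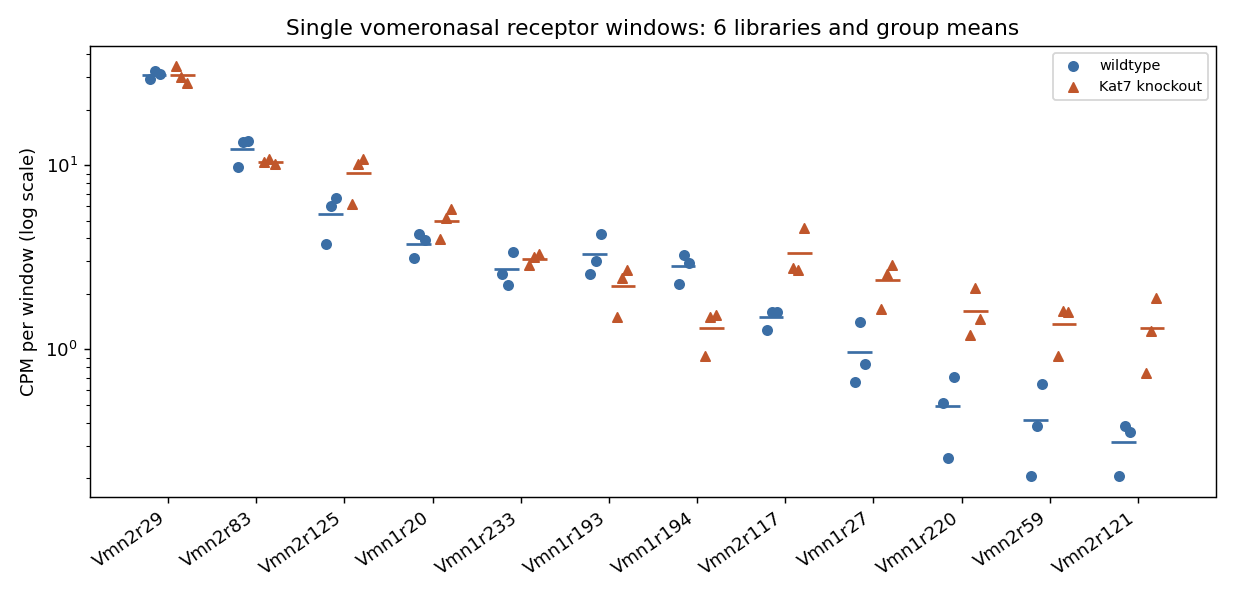
CPM of 12 vomeronasal receptor windows in each library (points) with the group means (lines), on a log axis, for wildtype (circles) and Kat7 knockout (triangles). Vmn2r29 overlaps at 28 to 34.4 CPM, Vmn1r194 is lower in every knockout library, and the closed windows at the right, such as Vmn2r121, are higher in every knockout library.

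Among receptors with a known ligand or role, Vmn2r26 alone passed the test. Vmn2r26 (V2r1b) responds to peptides that bind MHC class I, and its window held 0.308, 0.703 and 0.532 CPM in wildtype and 0.573, 1.79 and 1.77 CPM in knockout. Knockout library 1 lay among the wildtype values (log2 fold change 1.43, SE 0.525, adjusted p = 0.0272). The call of Vmn2r26 was lost under 7 of the 13 alternatives that gave an adjusted p. Vmn2r116 (V2Rp5), the receptor for the male pheromone ESP1, was at 0.897 ± 0.072 against 1.48 ± 0.642 CPM, with a change of 0.71 in log2 (adjusted p = 0.291). Vmn2r1, which is coexpressed broadly with other V2Rs, had a log2 fold change of 0.24 (adjusted p = 0.746). Vmn1r49 (V1rb2), a receptor for 2-heptanone, had one of 0.73 (adjusted p = 0.295). The sulfated steroid receptors Vmn1r89 (V1rj2) and Vmn1r85 (V1rj3) had values of 1.08 (adjusted p = 0.137) and -0.00 (adjusted p = 0.9996).

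Vmn1r226 and Vmn2r81 had log2 fold changes of 0.98 (adjusted p = 0.19) and -0.05 (adjusted p = 0.952). The largest changes that did not pass were at Vmn1r58 (1.32, adjusted p = 0.054), Vmn1r26 (1.30, adjusted p = 0.0593) and Vmn1r185 (1.28, adjusted p = 0.0599) and at Vmn2r24 (1.23, adjusted p = 0.0703), Vmn2r60 (1.21, adjusted p = 0.0791) and Vmn2r104 (1.21, adjusted p = 0.0651).

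By chromosome, the Vmn1r windows fell into 124 on chromosome 7, 51 on chromosome 6, 35 on chromosome 13, 14 on chromosome 17, 2 on chromosome 4 and 1 each on chromosomes 1 and 18. The Vmn2r windows fell into 51 on chromosome 7, 30 on chromosome 17, 11 on chromosome 5, 9 on chromosome 6, 8 on chromosome 10, 7 on chromosome 3, 2 each on chromosomes 4 and 14 and 1 on chromosome X. Splitting wherever neighbouring members lay over 1 Mb apart gave 27 loci, 13 with Vmn1r and 17 with Vmn2r members. The largest held 86 Vmn1r windows on chromosome 7 (20098158 to 24055691), of which 57 were tested and 5 were higher.

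Between chromosomes with at least 7 members of a family, the knockout share of closed windows, relative to wildtype, ranged from 0.946-fold to 1.51-fold. On chromosome 7 the Vmn1r windows made up 1.23, 1.35 and 1.39% of the closed-window sum in wildtype and 1.54, 1.94 and 2.09% in knockout (1.4-fold), with a median log2 fold change without a filter of 0.72. On chromosome 6 the Vmn1r share was 0.718, 0.786 and 0.856% against 0.901, 0.939 and 1.1% (1.25-fold, median 0.62). In both clusters all knockout libraries were above all wildtype libraries. On chromosome 13 the Vmn1r share was 0.61, 0.591 and 0.7% against 0.535, 0.653 and 0.68% (0.982-fold, median 0.26), with full overlap. The chromosome 17 Vmn1r share overlapped as well, at 1.08-fold (median 0.65). Against the other set of closed windows chromosome 13 was at 1.19-fold, still with overlap, and chromosome 17 at 1.3-fold without overlap.

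The Vmn2r clusters of chromosomes 5, 6, 7 and 17 had separate groups, at 1.5-fold, 1.51-fold, 1.24-fold and 1.42-fold. Their median log2 fold changes without a filter were 0.78, 0.98, 0.84 and 0.76. On chromosome 17, for example, the share was 0.392, 0.484 and 0.504% in wildtype and 0.609, 0.654 and 0.702% in knockout. The clusters of chromosome 10, which holds Vmn2r83, and chromosome 3 overlapped, at 0.946-fold and 1.23-fold (1.13-fold and 1.5-fold against the other set of closed windows, also with overlap). Their medians were 0.63 and 0.53. Single open windows weigh on such sums. In wildtype Vmn2r83 averaged 12.2 CPM where chromosome 10 summed to 14.8 to 22.8 CPM. Vmn2r29 averaged 31 CPM where the Vmn2r windows of chromosome 7 summed to 58.6 to 78.8 CPM. Chromosome 10 held 2 separate Vmn2r loci. The locus that includes Vmn2r83 (79145816 to 79470958) was at 0.963-fold in summed CPM, and the other (130392241 to 130500379) at 1.58-fold, both with overlap. The sum of the first locus with Vmn2r83 taken out was not computed. Whether clusters differ from one another was not tested. Higher calls after the filter numbered 5 of 89 Vmn1r windows tested on chromosome 7, 1 of 50 on chromosome 6 and 1 of 34 on chromosome 13, and 7 of 49 Vmn2r windows on chromosome 7 and 1 each on chromosomes 4, 6, 17 and X, against the background of 6.36%.

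**Figure D4:**
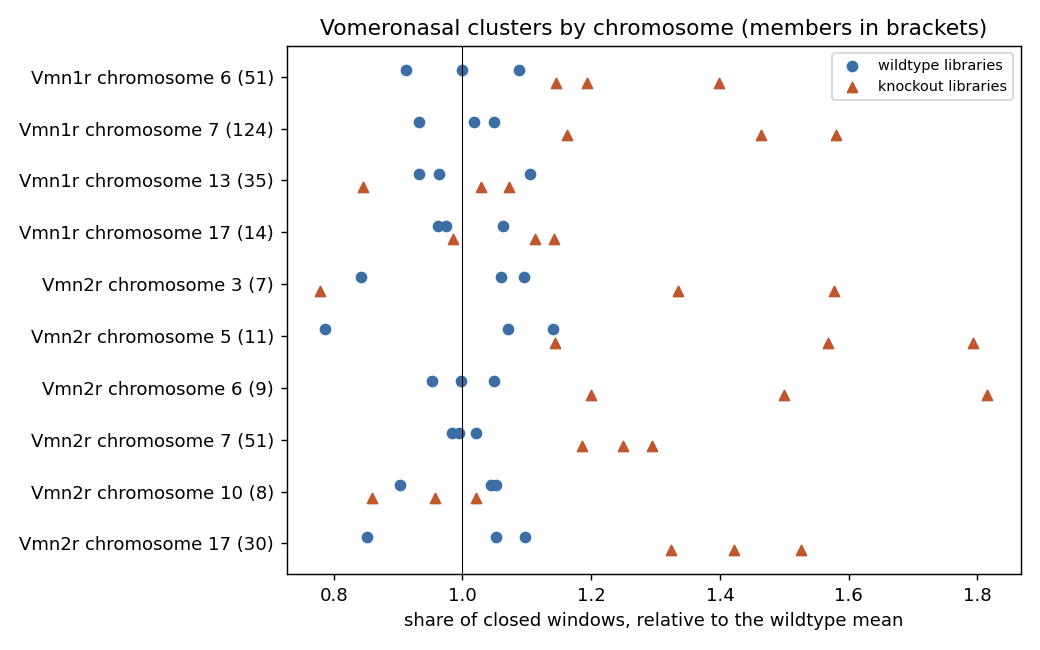
Share of the closed-window sum held by each chromosome's Vmn1r or Vmn2r windows, divided by its wildtype mean, with 1 point per library (circles wildtype, triangles knockout) and the number of members in brackets, for clusters of at least 7 members. Knockout libraries lie to the right of all wildtype libraries in 6 of the 10 clusters and overlap for Vmn1r on chromosomes 13 and 17 and Vmn2r on chromosomes 3 and 10.

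Recent copies of receptor genes limit what single windows show. Identical promoters occurred in 24 groups with 60 members. The 54 Vmn1r windows with an identical promoter elsewhere had a median of 0.188 CPM per kb, the 29 whose nearest relative differed by 1 to 15 edits one of 0.236, and the 121 with more edits one of 0.242. How reads that map to several places were handled is not given in the sources used here, so values of copied members are uncertain. Among the higher windows Vmn1r143, Vmn1r151, Vmn1r166, Vmn1r257 and Vmn2r31 had identical copies. Vmn1r27, Vmn1r121, Vmn2r38, Vmn2r40 and Vmn2r117 had a nearest relative at 1 to 15 edits. Vmn2r47 and Vmn2r125 had no promoter in the reference, so whether they have close copies is unknown. The median log2 fold changes of the classes were 0.69 for identical Vmn1r windows, 0.76 for near copies and 0.61 for the rest.

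Vmn1r levels were lower farther from open windows of other genes. The nearest window of another gene with at least 20 CPM lay a median of 317 kb from Vmn1r and 400 kb from Vmn2r windows. Across windows, which share libraries and clusters, Spearman's rho between distance and level per kb was -0.41 for the 228 Vmn1r and -0.18 for the 121 Vmn2r windows. Vmn1r windows within 100 kb of such a window had a median of 0.255 CPM per kb (n = 32), and those over 500 kb away one of 0.193 (n = 80). Most of the latter lie in the largest cluster of chromosome 7, whose median was 0.198 CPM per kb. That cluster also holds nearly all the Vmn1r windows with identical promoters. Distance, cluster and copying therefore cannot be told apart here. The median log2 fold changes of the near and far Vmn1r windows were 0.51 and 0.64, and those of the Vmn2r windows 0.85 (n = 16) and 0.85 (n = 53).

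Windows of the signalling genes that vomeronasal neurons use were counted in the same test. Of 13 signalling windows tested, 1 was higher and 4 were lower (backgrounds of 6.36% and 20.2%). Plcb2, a phospholipase C, rose from 26.9 ± 4.58 to 44.6 ± 4.57 CPM, with a change of 0.73 in log2 (adjusted p = 1.25e-09). Ano1, a calcium-activated chloride channel, fell from 10.7 ± 1.79 to 3.33 ± 1.15 CPM, with a change of -1.69 in log2 (adjusted p = 9.28e-19). Cnga4, a cyclic nucleotide-gated channel subunit, and the G protein gamma subunits Gng8 and Gng13 fell by 0.74, 0.53 and 0.49 on the log2 scale. The call of Cnga4 was lost under 8 of the 14 alternatives that gave an adjusted p. Trpc2 itself was closed at 1.55 CPM in wildtype and 1 CPM in knockout, with a change of -0.61 in log2 (adjusted p = 0.356). Gnai2, open at 164 and 171 CPM, and Gnao1, at 37.5 and 31.4 CPM, had log2 fold changes of 0.06 (adjusted p = 0.764) and -0.26 (adjusted p = 0.0777). Gnao1 passed as lower under 9 of the 14 alternatives that gave an adjusted p, among them the fit without a filter (adjusted p = 0.00914).

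Of 22 windows of genes for neuron identity and development, 3 were higher and 9 lower (backgrounds of 6.36% and 20.2%). Omp, the olfactory marker protein of mature sensory neurons, fell from 64 ± 5.96 to 36.3 ± 2.06 CPM, with a change of -0.82 in log2 (adjusted p = 7.91e-12). Tfap2e, a transcription factor of the V2R lineage, fell from 16.4 ± 3.67 to 8.7 ± 0.674 CPM (log2 fold change -0.92). Ebf1 (-1.56), Neurog1 (-1.40), Kirrel2 (-1.16), Atf5 (-0.99), Lhx2 (-0.63) and Ncam2 (-0.55) also fell, and Nrp2 (0.68), Ebf3 (0.65) and Meis2 (0.37) rose. These genes also act in other tissues.

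Formyl peptide receptors, a further vomeronasal receptor family, had 0 of 7 windows higher and 0 lower in edgeR, with 0 at an unadjusted p under 0.05 and 0 in DESeq2, and a median log2 fold change of 0.51. The H2-M10 family and its neighbours, MHC class Ib genes expressed with V2Rs, had 0 of 9 in each direction, 0 at an unadjusted p under 0.05 and 0 in DESeq2, with a median of 0.49. Of 22 pheromone ligand windows tested, 1 was higher and 2 were lower. Esp31, a secreted peptide of the ESP1 family, had a log2 fold change of 1.57 (adjusted p = 0.0159, lost under 4 of the 13 alternatives that gave one), its relative Esp3 one of -1.01 (adjusted p = 0.000129) and the odorant-binding protein gene Obp2a one of -1.54 (adjusted p = 3.66e-14). Over these 5 lists 5 of 73 windows were higher and 15 lower (backgrounds of 6.36% and 20.2%). Without knockout library 1 the counts were 23 and 19 of 74 (12.6% and 22.6%), and without wildtype library 1 they were 3 and 14 (2.73% and 17.6%).

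Beside the other chemosensory receptor families, the vomeronasal windows lay nearest to the olfactory receptors in level (medians of 0.228 and 0.229 against 0.252 CPM per kb) and well below the bitter taste receptors (0.567). Of 1055 olfactory receptor windows tested, 27 were higher and 21 lower (2.56% and 1.99%), with a median log2 fold change of 0.54. Of 34 bitter taste receptor windows, 22 were higher and 0 lower in edgeR, with 0 lower at an unadjusted p under 0.05 and in DESeq2, and a median of 1.23. For both families, the edgeR backgrounds were 6.36% higher and 20.2% lower over all 24817 windows tested. Over the 6205 of them lowest in level, which include receptor windows, the backgrounds were 2.26% higher and 1.35% lower. As a share of closed windows, olfactory receptors were at 1.07-fold and bitter taste receptors at 1.68-fold, with separate groups in both. Knockout library 1 had the highest bitter taste share of the 6 libraries (2.98%), while it had the lowest knockout share of Vmn1r and Vmn2r windows. No test of the difference between families was made.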

How the data were processed

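Counts per gene window for 6 ATAC-seq libraries (paired-end reads of 75 bases) were deposited by the authors, who used featureCounts and the mm10 build per the submitters' processing notes. How reads were aligned, how duplicate and multiply mapping reads were treated and whether cuts were shifted for the Tn5 offset is not given in the sources used here. Symbols came from the tables of the single libraries, whose identifiers and counts equal those of the series table. The members and all lists were chosen with earlier results of these data known.

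The test was edgeR 4.0.16 in R 4.3.3 (filterByExpr defaults, TMM factors of 0.884 to 1.057, robust glmQLFit and glmQLFTest, Benjamini-Hochberg adjustment at 0.05 over 24817 windows). Fold changes are knockout against wildtype. The common biological coefficient of variation, taken over all windows tested, was 10.9%. It does not give the spread of these members between libraries. The design had no replicate block. The pipeline was tested on simulated counts with a single dispersion for all windows and no shift of closed windows between libraries. That test does not cover the shifts between libraries seen here. Alternatives were library totals, TMMwsp, loess offsets, DESeq2 1.42.0, 2 other filters, windows sharing no base, a replicate block, each library left out, and, added later, libraries 2 and 3 of each group and another set of closed windows. Named in the text are members past the threshold, the 5 highest and the 3 largest not passing per family, receptors of known role, and list genes past the threshold, of which 1 is not reported here. Vmn1r130, Vmn1r63, the members called only without the filter, the receptors beside a named window and Clcn4 and Samd11 were chosen after their values were seen.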

Additional observations from a re-analysis of the deposited data

How the results depend on the processing

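The medians of both families kept their sign under every alternative, the lowest being 0.25 for Vmn1r with loess offsets, and lay at 0.37 to 0.95 for Vmn1r and 0.56 to 1.07 for Vmn2r with 1 library left out. Counts of higher calls did not hold. For Vmn1r, 7 in the reported test, they were 2 with library totals alone, 13 with no filter, 2 with a mean count of at least 20 (44 windows tested), 3 with windows that share no base, 3 with DESeq2, 58 with libraries 2 and 3 of each group (chosen after the sums were seen) and 0 to 83 with 1 library left out. For Vmn2r, 11 in the reported test, they were 5, 13, 5 (48 tested), 5, 6, 59 and 2 to 76 in the same order. Vmn1r windows lower numbered 0 or 1 when 1 library was left out. Over all windows, 1578 were higher, against 2937 with library totals, 4339 with loess offsets, 2602 with a mean count of at least 20, 2664 of 25206 tested with libraries 2 and 3 and 689 to 3177 with 1 library left out; the share of higher among all calls was 23.9% and became 35.6%, 47.2% and 33.8% under the first 3. List windows higher, 5 in the reported test, were 15 with libraries 2 and 3 and 3 to 23 with 1 library left out. Kat7 had a log2 fold change of -3.32 with libraries 2 and 3 (adjusted p = 0.0658) and -4.41 to -3.38 with 1 library left out. The folds of the closed-window shares became 1.5 and 1.53 against the other set of closed windows. Vmn2r29 turned to 0.22 (adjusted p = 0.045) with loess offsets. The causes were not tested.

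With the replicate number as a block, 25 Vmn1r, 41 Vmn2r, 13 list and 2824 of all windows were higher, the last 33.8% of all calls. Same-numbered libraries had deviations that correlated at 0.374, 0.0284 and 0.389, so the numbers were not taken to pair the samples, and knockout library 2 correlated best with wildtype library 3 (0.308). Counts of about 15 to 19 per window limit what single members can show.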

Other observations

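The table also held 7 windows of vomeronasal receptor pseudogenes whose symbols carry a pseudogene suffix and so fall outside the families as defined. Their levels, 0.211 to 0.381 CPM per kb, lay within the range of the Vmn1r windows. All 7 had a log2 fold change above 0, from 0.31 at Vmn1r-ps103 to 1.18 at Vmn1r-ps79, and none passed the edgeR test. Vmn1r-ps79, in the largest Vmn1r cluster of chromosome 7, had counts of 8, 16 and 14 in wildtype and 13, 42 and 30 in knockout (adjusted p = 0.0527). Vmn2r-ps60 had 8, 9 and 8 in wildtype and 13, 24 and 18 in knockout, the one pseudogene window whose groups did not overlap (adjusted p = 0.1).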
